A study of Homo sapiens with 6 samples.

Results

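The 10 genes described here encode proteins that build, crosslink or bind the extracellular matrix, and their RNA was followed in HK-2 cells: CCDC80, SPARC, TNC, LOX, LOXL1, LOXL2, LOXL4, FBN1, FBLN1 and BGN. They were taken by name from the deposited table, where each of the 10 had 1 row among 58825 genes. HK-2 cells are an established human line derived from kidney proximal tubule, and OX-LDL is oxidized low-density lipoprotein, a cholesterol carrier damaged by oxidation. Poly(A) RNA was sequenced from 3 Control libraries, which the labels call untreated, and from 3 libraries of cells kept for 48 h with OX-LDL at 25 μg/ml. In the cell culture methods, treatment followed a period in medium with little serum, and no such step is given for the Control cultures separately. The cells are of 1 line, and the culture methods describe the in vitro experiments as independent without tying this to the sequenced libraries. The labels do not say whether replicates were separate cultures, so that p-values measure the spread between these libraries, and that spread may be biological or technical.

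The matrix around tubules is a mesh of collagens and elastic microfibrils that cells secrete and then harden. Lysyl oxidases, copper enzymes that work outside the cell, oxidize lysines in collagen and elastin so that neighbouring chains become covalently joined, and stiffened matrix of this kind is a hallmark of kidney fibrosis. Matricellular proteins such as SPARC and tenascin-C sit in the same matrix but act mainly on how cells attach to it and respond to it.

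The libraries held 62561347 to 76797607 estimated counts, of which 5.25 to 5.69% came from mitochondrial genes. A read pair gave about 4 of these counts, so a library's limit of detection was set at 12 counts, which is 3 read pairs and covers counting error only. Of the epithelial markers, EPCAM was at 51.2 ± 3.68 FPKM without and 53.1 ± 3.13 FPKM with OX-LDL (SD over 3 libraries), whereas LRP2 (megalin), a defining receptor of the proximal tubule, had 0 counts in each library. CUBN and SLC34A1, also markers of that segment, had between 4 and 46 counts per library, and ANPEP and AQP1 had at most 45. Other genes of the list found in that segment were present. MME was at 3.73 ± 0.169 in Control and 3.21 ± 0.495 FPKM in OX-LDL. GGT1 was at 3.13, 18.2 and 3.88 FPKM in Control and at 15.8, 17.7 and 16.1 FPKM in OX-LDL. The epithelial list of 16 genes summed to 187 to 217 FPKM in Control and 229 to 271 FPKM in OX-LDL. KRT8 and KRT19 passed the test as higher and PAX8 as lower among its 11 tested genes. DESeq2 called 3 of them higher and 4 lower, and the counts at an unadjusted p under 0.05 were the same. Over all 19510 genes tested, 5936 had an unadjusted p under 0.05 by edgeR. DESeq2 called 4430 genes, 2292 as higher and 2138 as lower. Of the 11 tested epithelial genes, 3 (KRT8, KRT18 and KRT19) had all OX-LDL values in FPKM above the highest Control value. For 4 (PAX2, PAX8, SLC5A2 and CDH16), all OX-LDL values were below the lowest Control value. These genes are named after their values were seen. Over all genes tested, the groups lay apart with OX-LDL higher for 16.8% and with OX-LDL lower for 20.5%. The part of the epithelial list in the results was not tested. Matrix genes are also made by fibroblasts, and the list of 10 fibroblast markers summed to 10.3 to 12.3 FPKM in Control and 9.22 to 14.3 FPKM in OX-LDL, nearly all of it LUM. Of its defining genes, DCN and MEOX1 had 0 counts in each library and COL1A2 had at most 4. In the same list COL1A1 had 408 to 836 counts per library and THY1 had 18 to 219. COL1A1 was at 0.573 ± 0.112 in Control and 0.813 ± 0.165 FPKM in OX-LDL (log2 fold change 0.54, SE 0.22). None of its 3 tested genes passed edgeR's test or that of DESeq2, although 1 had an unadjusted p-value under 0.05. The endothelial list (6 genes) stayed at or under 0.122 FPKM in sum. The leukocyte list (6 genes) summed to 3.14 to 7.74 FPKM in Control and 9.16 to 14.0 FPKM in OX-LDL, most of it CD68 and with PTPRC at 8 counts or fewer. None of its 2 tested genes was called by edgeR, while DESeq2 called 1 as higher, 1 had an unadjusted p under 0.05, and the part of this list in the results was not tested.

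Of the 10 matrix genes, 4 were higher in OX-LDL (CCDC80, SPARC, LOX and FBN1), 1 was lower (LOXL2) and 5 did not pass the test. A gene was called where the quasi-likelihood test of edgeR gave p under 0.05 after adjustment over all 19510 genes whose mean reached 0.1 FPKM. All 10 genes could be tested. In bulk RNA, a change in the share of cells that express a gene and a change of RNA per cell cannot be told apart. Over all genes tested, 15.3% were called, 7.91% as higher and 7.42% as lower. In FPKM the 3 libraries of one group all lay above or all below those of the other for the same 5 members, and for 37.2% of all genes tested, 16.8% with OX-LDL higher and 20.5% with OX-LDL lower. For differentially expressed genes the study names a change of more than 2-fold with p under 0.05, while its methods refer to adjusted p-values. With p taken before adjustment, CCDC80 alone of the 10 passed these limits, as a rise. Of all genes tested, 6.36% passed them (3.19% up and 3.16% down). The median log2 fold change (OX-LDL over Control) of the members was 0.52, beside -0.004 over all genes tested. The members were chosen with earlier results of these data known, so these comparisons with all genes are descriptions and not tests. The shares also depend on the minimum level. LOXL1 and BGN did not reach a mean of 1 FPKM. With that minimum they were not tested, and 5 of the remaining members and 3152 of 12259 genes were called. An exact permutation test of 3 libraries against 3 has 0.1 as its smallest two-sided p, and p-values are therefore given only from fits across all genes.

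**Figure D1:**
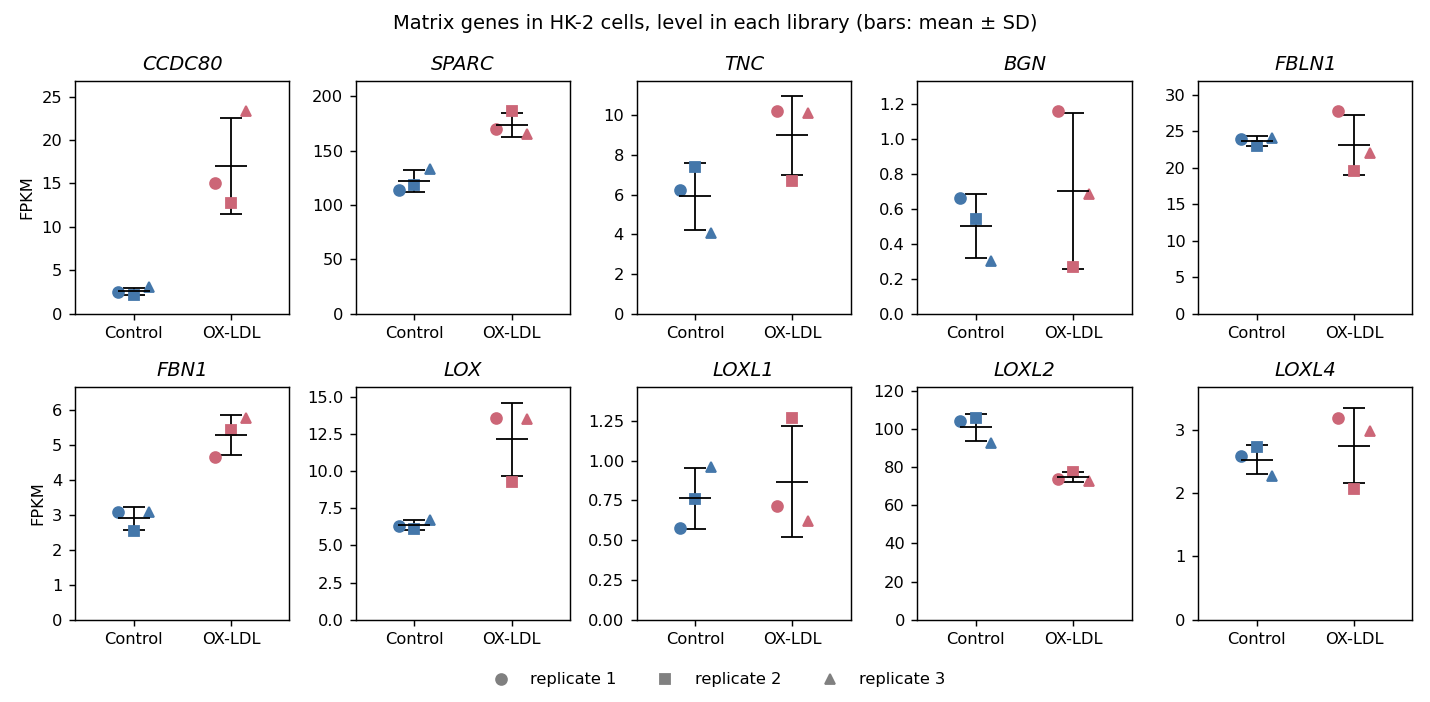
FPKM (y axes, from 0) of the 10 matrix genes in each of the 3 Control and 3 OX-LDL libraries, with marker shapes for the replicate number and black bars for the mean ± SD. The groups are apart for CCDC80, SPARC, FBN1, LOX and LOXL2 and overlap for TNC, BGN, FBLN1, LOXL1 and LOXL4.

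CCDC80 encodes a secreted protein that binds the matrix and is known from fat cell differentiation. CCDC80 (ENSG00000091986; chromosome 3, 112596794 to 112649530 of GRCh38, minus strand) overlaps no other gene of the table. It was at 2.50, 2.14 and 3.04 FPKM in Control replicates 1 to 3 and at 15.1, 12.7 and 23.3 FPKM in OX-LDL replicates 1 to 3. Each OX-LDL library was far above each Control library, and OX-LDL replicate 3 was the highest. The means were 2.56 ± 0.455 and 17.0 ± 5.55 FPKM (SD, n = 3 per group), a 6.79-fold rise. The log2 fold change was 2.76 (SE, the standard error, 0.26, edgeR adjusted p = 0.00207). Among the 12259 genes whose mean reached 1 FPKM, this was the rise of rank 15. With 1 library left out, the log2 fold change lay between 2.47 and 2.94 and the adjusted p-value from edgeR reached at most 0.0125.

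The rise was steep enough to move CCDC80 within the order of the 10 genes. FPKM divides by gene length, and the length behind the deposited values was 1.13 to 1.19 times the merged length of all annotated exons in GENCODE release 29, which is 13.07 kb for CCDC80 and 4.83 kb for SPARC. On this scale CCDC80 was the seventh of the 10 in Control, where its range overlapped with those of FBN1 above and LOXL4 below it. In OX-LDL it was the fourth, and its range overlapped with those of FBLN1 above and LOX below it. SPARC and LOXL2 were first and second in both groups with no overlap between neighbours, and LOXL1 and BGN were last, with ranges that overlapped each other.

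Sequence just before the transcription start is shown for the members that were higher in OX-LDL. RefSeq (GRCh38.p14) gives a start for 9 of the 10 members. The bases printed precede the RefSeq start nearest to the 5′ end of the gene in the deposited table, and stop where an exon annotated in GENCODE release 29 begins. For SPARC no such bases were left within the 250 searched. All are on the minus strand and written 5′ to 3′, with capitals for ACGTG in LOX and GGAATG in FBN1 on either strand.
CCDC80, chr3:112641301-112641393: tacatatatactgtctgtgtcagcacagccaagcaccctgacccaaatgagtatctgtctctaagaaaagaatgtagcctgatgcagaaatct
LOX, chr5:122078361-122078509: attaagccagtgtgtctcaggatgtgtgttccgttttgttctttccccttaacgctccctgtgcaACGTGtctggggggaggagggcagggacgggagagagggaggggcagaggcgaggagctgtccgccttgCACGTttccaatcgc
FBN1, chr15:48644971-48645220: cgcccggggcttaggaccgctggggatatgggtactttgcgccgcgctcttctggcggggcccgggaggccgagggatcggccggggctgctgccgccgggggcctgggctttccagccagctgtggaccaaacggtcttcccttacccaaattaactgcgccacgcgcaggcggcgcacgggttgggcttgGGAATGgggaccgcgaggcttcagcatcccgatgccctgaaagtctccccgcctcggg

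A set of 6 short motifs was searched on both strands in the 250 bases before each start. TGANTCA is bound by AP-1 and GGAATG by TEAD factors, and ACGTG is the core of the hypoxia response element. The others were GGGCGG of SP1, the core promoter element TATAAA and the CCAAT box. The LOX window held ACGTG at 4 positions, 2 of them in the stretch shown, and ACGTG occurred in 18.5% of all 34943 windows of this length. The LOX window also held GGGCGG and CCAAT at 1 position each, beside 42.5% and 32.0% of all windows. GGAATG stood at 1 position in the FBN1 window and 1 in the SPARC window, beside 11.9% of all windows. None of the 6 motifs was in the CCDC80 window, whose G and C content was 42.0%, compared with 69.6% for FBN1. No motif was shared by all 4 windows. The RefSeq start of CCDC80 lies 8387 bases inside the gene as the table bounds it and that of FBN1 lies 879 bases inside, so both stretches lie between annotated exons of longer transcripts. Which start these cells use was not examined. A match of letters is a description and not a binding site.

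The lysyl oxidases split. LOX rose and LOXL2 fell, while LOXL1 and LOXL4 did not pass the test. LOX, the founding enzyme of the family (ENSG00000113083; chromosome 5, 122063195 to 122078259), was at 6.31, 6.10 and 6.72 FPKM in Control and at 13.6, 9.27 and 13.5 FPKM in OX-LDL. The Control libraries were close to each other, and OX-LDL replicate 2 was the lowest of its group yet above all of Control. The log2 fold change of LOX was 0.96 (SE 0.15, edgeR adjusted p = 0.0109), a 1.94-fold rise. The call held with each library left out in turn, with adjusted p-values from edgeR between 0.00313 and 0.0497. LOX overlaps SRFBP1 on the other strand, which was at 7.70 ± 0.0846 in Control and 7.40 ± 0.332 FPKM in OX-LDL.

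LOXL2, a lysyl oxidase known for crosslinking collagen IV of basement membranes, was the most abundant of the family (ENSG00000134013). Its levels were 104, 106 and 92.9 FPKM in Control and 73.9, 77.7 and 72.5 FPKM in OX-LDL. The OX-LDL libraries were tight and all below Control. The log2 fold change of LOXL2 was -0.40 (SE 0.07, edgeR adjusted p = 0.0154), a 1.32-fold fall. This was the only call among the 10 that depended on single libraries, with an adjusted p-value from edgeR of 0.0591 without Control replicate 2, 0.0618 without OX-LDL replicate 1 and 0.0632 without OX-LDL replicate 3. LOXL2-AS1 lies on the other strand of LOXL2. ENTPD4 overlaps LOXL2 on the same strand and was at 6.98 ± 0.331 in Control and 7.68 ± 0.226 FPKM in OX-LDL.

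LOXL4, a family member that also acts on collagen (ENSG00000138131; chromosome 10, 98247690 to 98268194), had 2.59, 2.72 and 2.27 FPKM in Control and 3.19, 2.07 and 2.97 FPKM in OX-LDL. The groups overlapped, and the log2 fold change of LOXL4 was 0.15 (SE 0.19). LOXL1, which is needed for elastic fibers (ENSG00000129038; chromosome 15, 73925989 to 73952137), had 0.575, 0.756 and 0.957 FPKM in Control and 0.716, 1.27 and 0.619 FPKM in OX-LDL, and its antisense gene LOXL1-AS1 lies across it. OX-LDL replicate 2 was high for LOXL1 and low for LOX and LOXL4. The log2 fold change of LOXL1 was 0.21 (SE 0.33), and without OX-LDL replicate 2 it was -0.17. LOXL3, the remaining family member, had 0.660 ± 0.0964 in Control and 0.495 ± 0.0855 FPKM in OX-LDL and was not called.

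As a share of the family's summed FPKM, LOX was at 5.55, 5.23 and 6.50% in Control and at 14.8, 10.2 and 15.0% in OX-LDL. LOXL2 made up 91.2, 91.1 and 89.8% in Control and 80.3, 85.6 and 80.5% in OX-LDL. The rest was mostly LOXL4, at 2.27 ± 0.0709% in Control and 3.02 ± 0.644% in OX-LDL. LOXL2 was 15.9 ± 1.86 times LOX in Control and 6.39 ± 1.72 times LOX in OX-LDL (SD, n = 3 per group), with no overlap between the groups. The summed FPKM of the family was 111 ± 7.37 in Control and 90.9 ± 0.971 in OX-LDL. These shares restate the levels above and were not tested separately.

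**Figure D2:**
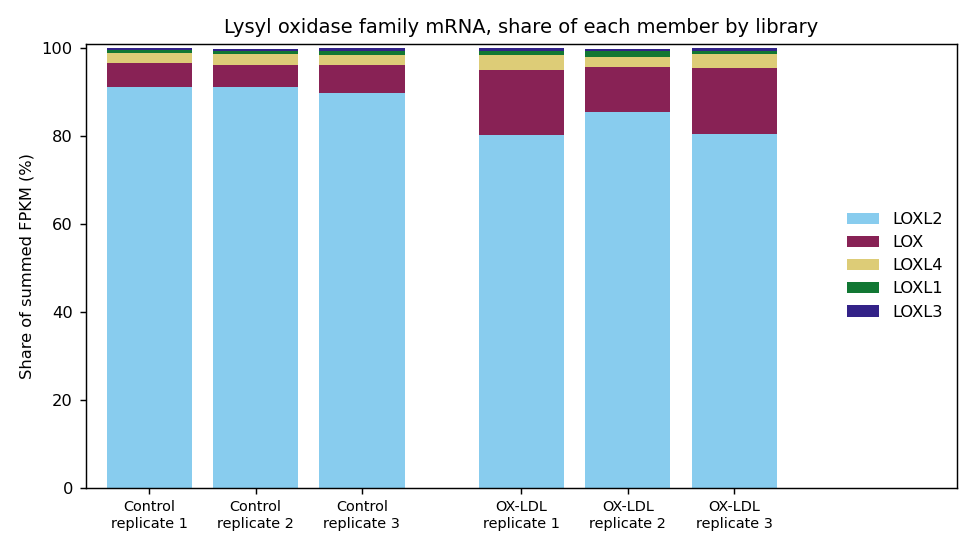
Share of the summed FPKM of 5 lysyl oxidase genes (y axis, percent) in each of the 6 libraries, stacked from LOXL2 at the bottom to LOXL3 at the top. The LOX share is 5.23 to 6.50% in the Control libraries and 10.2 to 15.0% in the OX-LDL libraries.

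FBN1 encodes fibrillin-1, the main building block of the microfibrils on which elastin is laid down. FBN1 (ENSG00000166147; chromosome 15, 48408306 to 48645849) was at 3.08, 2.53 and 3.09 FPKM in Control and at 4.65, 5.43 and 5.79 FPKM in OX-LDL. Each OX-LDL library was above each Control library. The means were 2.90 ± 0.319 and 5.29 ± 0.584 FPKM, with a log2 fold change of 0.90 (SE 0.13, edgeR adjusted p = 0.00743). FBLN1 encodes fibulin-1, a calcium-binding protein of basement membranes and elastic fibers (ENSG00000077942; chromosome 22, 45502238 to 45601135). It was at 23.9, 22.9 and 24.1 FPKM in Control and at 27.7, 19.6 and 22.0 FPKM in OX-LDL. The OX-LDL libraries lay on both sides of Control, and the log2 fold change of FBLN1 was 0.00 (SE 0.12), between -0.14 and 0.11 with 1 library left out.

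SPARC, a collagen-binding matricellular glycoprotein (ENSG00000113140; chromosome 5, 151661096 to 151686975), had the highest level of the 10. It was at 114, 118 and 133 FPKM in Control and at 170, 186 and 165 FPKM in OX-LDL. The lowest OX-LDL library was above the highest Control library. Its log2 fold change was 0.54 (SE 0.08, edgeR adjusted p = 0.00919), between 0.49 and 0.61 with 1 library left out. The libraries held 46629 to 78281 estimated counts of SPARC, so counting error is small beside the spread between libraries.

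TNC encodes tenascin-C, a large matricellular protein that appears in wounds and remodelled tissue (ENSG00000041982; chromosome 9, 115019575 to 115118257). It was at 6.24, 7.40 and 4.09 FPKM in Control and at 10.2, 6.68 and 10.1 FPKM in OX-LDL. OX-LDL replicate 2 was below Control replicate 2, so the groups overlapped. The log2 fold change of TNC was 0.64 (SE 0.25), and the adjusted p was 0.135 by edgeR but 0.0395 by DESeq2. BGN encodes biglycan, a small leucine-rich proteoglycan that binds collagen (ENSG00000182492; chromosome X, 153494980 to 153509546). It had 0.661, 0.545 and 0.300 FPKM in Control and 1.16, 0.267 and 0.687 FPKM in OX-LDL, from 59 to 206 counts per library. The values of BGN were low and wide in both groups, with a log2 fold change of 0.51 (SE 0.55) that was -0.04 without OX-LDL replicate 1. BGN overlaps HAUS7 on the other strand. BGN did not pass the test (adjusted p = 0.594 by edgeR).

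No library was high or low for all members. Control replicate 3 held the lowest value of its group for 4 of the 10 genes and the highest for 6, and OX-LDL replicate 2 held the lowest for 6 and the highest for 3. Relative spread within groups ran from 2.72% (FBLN1 in Control) to 63.4% (BGN in OX-LDL) of the mean. For CCDC80 it was 17.7% in Control and 32.6% in OX-LDL.

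**Figure D3:**
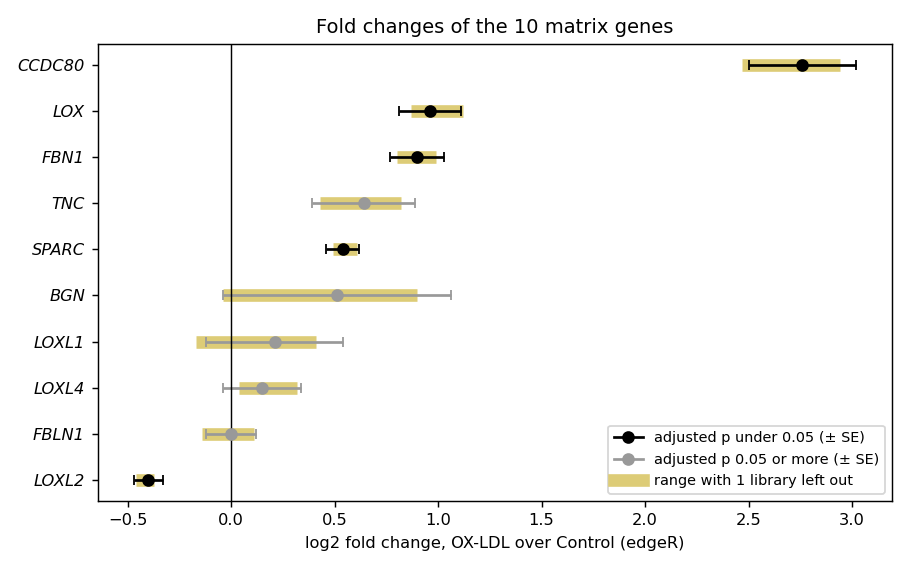
Log2 fold change of each of the 10 matrix genes (x axis, OX-LDL over Control, edgeR) with bars of 1 standard error, black where the adjusted p-value was under 0.05. Broad yellow bars give the range with 1 library left out in turn. CCDC80 stands at 2.76, LOX, FBN1 and SPARC lie between 0.54 and 0.96, and LOXL2 lies at -0.40.

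Other enzymes that modify or crosslink collagen moved mostly upward. Of 19 listed genes 18 could be tested. Of these, 11 were higher, 0 were lower and 7 did not pass edgeR's test, with a median log2 fold change of 0.30. Over all genes tested, 7.91% were called higher and 7.42% lower. P3H2 (log2 fold change -0.24), named after its value was seen, was the 1 gene of the list lower at an unadjusted p-value under 0.05. DESeq2 called 11 of the list higher and 0 lower, beside 2292 higher and 2138 lower of all 19510 genes. With any 1 library left out, 6 to 8 of these genes were called. P4HA1, a catalytic subunit of the collagen prolyl 4-hydroxylase, rose from 40.8 ± 2.79 to 74.9 ± 2.22 FPKM (log2 fold change 0.91, SE 0.08). TGM2, a transglutaminase that joins matrix proteins by bonds between glutamine and lysine, was at 6.28, 5.27 and 6.89 FPKM in Control and at 16.6, 12.1 and 15.3 FPKM in OX-LDL. With a log2 fold change of 1.29 (SE 0.15), TGM2 rose the most of the list. BMP1, a protease that releases mature LOX and trims procollagen, rose from 6.02 ± 0.0851 to 8.55 ± 0.540 FPKM. P3H3, of the prolyl 3-hydroxylase family, rose from 7.59 ± 0.272 to 10.5 ± 0.395 FPKM, and overlaps GPR162 on its strand. By edgeR, adjusted p for these 4 genes lay between 0.00184 and 0.00829. The other 7 that passed, named here after their values had been seen, were the hydroxylases P4HA2, PLOD1, PLOD2 and P3H1, the collagen glycosyltransferase COLGALT1 and the collagen chaperones PPIB and SERPINH1, with log2 fold changes between 0.25 and 1.01.

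**Figure D4:**
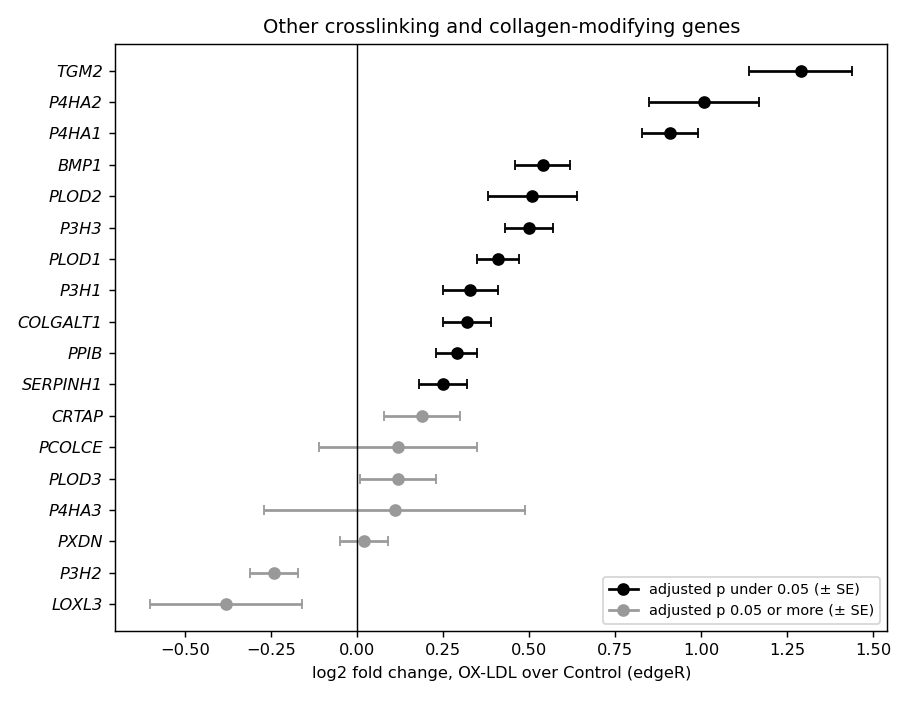
Log2 fold change of 18 other collagen-modifying and crosslinking genes (x axis, OX-LDL over Control, edgeR) with bars of 1 standard error, black where the adjusted p-value was under 0.05. The 11 black points all lie to the right of 0, from 0.25 for SERPINH1 to 1.29 for TGM2.

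A further list held partners of FBN1 and FBLN1 in microfibrils and elastic fibers. Of 16 listed genes 10 could be tested, with 1 higher, 0 lower and a median log2 fold change of 0.11. That is near the share over all genes tested, of which 7.91% were called higher and 7.42% lower. At an unadjusted p-value under 0.05, 4 were higher and 0 lower, beside 5936 of all 19510 genes in either direction. DESeq2 called 2 higher and 0 lower, beside 4430 of all genes in either direction. The called gene was ADAMTSL4, which binds fibrillin-1, at 0.210 ± 0.0434 in Control and 0.479 ± 0.134 FPKM in OX-LDL (log2 fold change 1.22, SE 0.29, adjusted p = 0.0331 in edgeR's test). It lost the call with any 1 library left out, where adjusted p-values from edgeR ran from 0.0552 to 0.105. LTBP2, a microfibril-associated protein, had 3.76 ± 1.01 and 5.81 ± 1.29 FPKM (adjusted p = 0.112 from edgeR and 0.026 from DESeq2). LTBP3, which holds latent TGF-β, had 4.15 ± 0.453 and 4.92 ± 0.307 FPKM. FBN2, the close relative of FBN1, had 2.00 ± 0.161 and 2.37 ± 0.238 FPKM, with a log2 fold change of 0.27 (SE 0.11) beside 0.90 for FBN1.

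Other matricellular genes went both ways. Of 18 listed genes 9 could be tested, with 4 higher and 1 lower, beside 7.91% and 7.42% of all genes tested. At an unadjusted p-value under 0.05, 4 were higher and 3 lower, beside 5936 of all 19510 genes in either direction. DESeq2 called 4 higher and 1 lower, beside 4430 of all genes in either direction. In FPKM the groups did not overlap for 4 of the 9 with OX-LDL higher and for 3 with OX-LDL lower. Over all genes tested these shares were 16.8% and 20.5%. The 3 lower included CCN2 (log2 fold change -0.19) and CCN3 (log2 fold change -0.29). Both did not pass edgeR's test and are named after their values were seen. The median log2 fold change of the 9 tested matricellular genes was 0.11. ECM1, a secreted glycoprotein, rose from 2.52 ± 0.0574 to 5.08 ± 0.925 FPKM (log2 fold change 1.04, SE 0.15). TGFBI, an integrin-binding matrix protein, rose from 32.7 ± 7.90 to 62.0 ± 4.36 FPKM (log2 fold change 0.95, SE 0.18, edgeR adjusted p = 0.0161). Leaving out Control replicate 1 raised the adjusted p of TGFBI to 0.0509 by edgeR, and leaving out OX-LDL replicate 1 to 0.0515. CCN5 rose from 0.356 ± 0.0968 to 0.772 ± 0.146 FPKM (log2 fold change 1.14), a call lost when 1 of Control replicates 1 and 2 or of OX-LDL replicates 1 and 3 was left out (edgeR adjusted p from 0.0856 to 0.11). SPOCK1, a proteoglycan of the SPARC family named after its value was seen, was the remaining gene that rose (log2 fold change 0.60, edgeR adjusted p = 0.0331). TNXB, which encodes tenascin-X, a relative of tenascin-C, was lower, with 292, 362 and 285 counts in the Control libraries and 70, 145 and 108 in the OX-LDL libraries. TNXB had a log2 fold change of -1.50 (SE 0.25, edgeR adjusted p = 0.0123), and leaving out Control replicate 2 or OX-LDL replicate 3 raised the adjusted p to 0.0520 or 0.0535. TNXB also lost its call with limma, at an adjusted p of 0.0761 on log2(FPKM + 0.1) and 0.0799 on log2(FPKM + 1). TNXB has a near-identical partial copy in the genome, so its counts are uncertain.

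SRPX and SRPX2 encode secreted proteins that share a domain with CCDC80. SRPX2 was at 0.782, 0.956 and 0.957 FPKM in Control and at 2.24, 1.38 and 1.80 FPKM in OX-LDL. The groups did not overlap, and the log2 fold change of SRPX2 was 1.04 (SE 0.20, edgeR adjusted p = 0.0175). The call of SRPX2 was lost when 1 of Control replicates 1 and 2 or of OX-LDL replicates 1 and 3 was left out, with edgeR adjusted p from 0.0534 to 0.0611. SRPX had 3.31 ± 0.832 in Control and 2.92 ± 0.323 FPKM in OX-LDL and was not called.

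Outside the 10 genes, the pattern over libraries most like that of CCDC80 was sought among 12251 genes whose mean reached 1 FPKM. The 5 with the highest Pearson correlation of log2(FPKM + 0.1) over the 6 libraries were TYW3 (r = 0.9987), FNTB, GSTA4, KPNA3 and HNRNPL (r = 0.9967). With 2 groups that lie apart, 1214 genes had a correlation above 0.9, and the order among such genes rests on small differences between libraries. Each changed less than CCDC80, with GSTA4, a glutathione transferase that detoxifies lipid peroxidation products, at 2.84 ± 0.0932 in Control and 5.20 ± 0.508 FPKM in OX-LDL. Among the members, the same correlation with CCDC80 was 0.971 for FBN1, 0.961 for LOX, 0.917 for SPARC and -0.981 for LOXL2. For the members that were not called it was 0.679 (TNC), 0.295 (LOXL4), 0.267 (BGN), 0.086 (LOXL1) and -0.115 (FBLN1). These correlations mostly restate for which members the groups lay apart, and were not tested. Genes with strong negative correlations were not counted.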

How the data were processed

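RNA-seq of 6 HK-2 libraries was analysed. The authors deposited 1 table with estimated counts per gene, not scaled for library size, and FPKM values, scaled by the authors for gene length and library size, with a count of 0 listed at 0.0001 FPKM. The submitters' processing notes name cutadapt 1.9, HISAT2 2.0.4, StringTie 1.3.4d, edgeR, DESeq2 and GRCh38, without their order. The library protocol marks strands, but whether counting used them is not given in the sources used here, so overlapping genes are uncertain.

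The counts were whole numbers and were tested as deposited with edgeR 4.0.16 in R 4.3.3 (TMM factors, glmQLFit, glmQLFTest, group as the only term, minimum mean of 0.1 FPKM), with Benjamini-Hochberg adjustment over 19510 genes. For the SE, each log2 fold change was divided by the root of its F statistic. Alternatives used DESeq2 1.42.0, limma 3.58.1 on log2(FPKM + 0.1) and log2(FPKM + 1), RLE factors, other minimum levels, counts divided by 4, a replicate block and 1 library left out. Between libraries of 1 group the chi-square per gene was 52.0 to 89.6, so none was counted as a duplicate. The members and gene lists were chosen with earlier results of these data known. Named genes are the members, up to 4 genes with the smallest p-value of each matrix list, the markers that check the cell type and the 5 genes most like CCDC80.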

Additional observations from a re-analysis of the deposited data

How the results depend on the processing

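Over 14 alternatives, the calls of CCDC80, SPARC, LOX and FBN1 held in each, and LOXL2 was lower in each and called in 11. With 1 library left out, the genes called numbered 1161 to 2943 (2991 with all libraries), those higher 619 to 1473, those lower 537 to 1470, and the members called lower 0 to 1. The lists gave 6 to 8 called genes for crosslinking, 0 for microfibrils, 2 to 5 for matricellular proteins and 0 to 1 for the relatives of CCDC80.

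With the replicate block, 1636 genes were called, 854 higher and 782 lower, and the lists gave 6, 0, 3 and 0. The labels give no meaning to shared numbers, and deviations of same-numbered libraries from their group means correlated at -0.094, -0.075 and -0.039 over 12259 genes, so the block was not used. It changed no call among the 10 members. Genes past both the fold limit and an unadjusted p-value under 0.05 numbered 1240, 321 with limma on log2(FPKM + 1) and 572 with a minimum of 1 FPKM. For microfibrils, DESeq2 called 2 genes, and both limma fits and the minimum of 1 FPKM called 0. For matricellular proteins, that minimum gave 3, since it tests fewer genes. Other causes were not tested. BGN and LOXL1 had 59 to 421 counts per library, and whether depth or spread between libraries limits their tests was not examined.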

Other observations

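Several matrix genes that fibroblasts make in quantity were at or near 0 in these epithelial cells. Of 9 small leucine-rich proteoglycans, the family of BGN, 2 could be tested. LUM (lumican) had 10.2 ± 1.10 in Control and 11.4 ± 2.90 FPKM in OX-LDL, and FMOD (fibromodulin) had 0.475 ± 0.0880 and 0.480 ± 0.0197 FPKM (SD, n = 3 per group). Neither passed edgeR's test or that of DESeq2, and neither had an unadjusted p-value under 0.05. In all, 5 of the 9 had at most 12 counts in each library, and DCN (decorin) had 0 throughout. POSTN (periostin), a matricellular protein of remodelled tissue, had 0 counts in 5 libraries and 24 in OX-LDL replicate 3.

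By the GO terms that the authors' table lists, all 10 members carried extracellular region, as did 8.04% of the tested genes with any term. Extracellular matrix organization was carried by 8 members and 1.12% of those genes, and basement membrane by 7 members and 0.502%. Protein-lysine 6-oxidase activity was carried by LOX, LOXL1, LOXL2 and LOXL4 among 5 tested genes in all. These terms describe the choice of members and were not tested.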
